A study of Mus musculus with 32 samples.

Results

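Interferon response genes are genes whose transcription rises when a cell senses an interferon, the family of secreted proteins that warn neighbouring cells of viruses and other intracellular microbes. A list of 40 such mouse genes was followed in the uterus, 26 of them typical of the type I interferon response and 14 more typical of the response to interferon gamma. A gene was counted as measured where at least 1 probe carrying its symbol was detected, meaning a detection p of at most 0.05 on any array. That held for 36 of the 40 genes, 23 type I and 13 gamma-type, out of 13439 genes measured in all. Ifit1, Ifi44 and Ifih1 of the type I list and Tgtp1 of the gamma list had no probe with their symbol and were not analysed here. Several genes of the list respond to both kinds of interferon, so the division into type I and gamma-type is a convention.

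The tissue was uterus of FVB/N mice, and each of the 32 samples was 1 mouse on 1 Illumina bead array. Uteri came from 4 non-pregnant mice (NP), 4 mice each at embryonic days 6.5 and 8.5 of pregnancy (E6.5 and E8.5), and 5 mice at each of the later days E10.5, E12.5, E15.5 as well as E17.5. The labels name no transgene and no drug. In pregnant mice the tissue was cut from sites of implantation, the embryo and placenta were removed and the decidua, the part of the uterine lining remodelled around the embryo, was scraped away, steps described only for them. Pregnancy and this sampling therefore cannot be told apart in any comparison with NP. How completely these tissues were removed on each day is not given, so the days of pregnancy may differ in this too. In tissue of many cell types, fewer cells of a type and less RNA per cell cannot be told apart either.

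Type I interferons signal through the receptor pair Ifnar1 and Ifnar2 to factors that include Stat2 and Irf9, which bind a promoter element called the interferon-stimulated response element (ISRE). Interferon gamma signals through Ifngr1 and Ifngr2, and its early target genes carry a different element, the gamma-activated site (GAS). In the mouse uterus, natural killer cells that gather at implantation sites are a known source of interferon gamma, which acts there on the maternal blood vessels. The products of the genes listed here detect viral RNA, block viral replication, tag proteins with the small modifier Isg15, guard membranes against intracellular microbes, or cut and carry peptides for display to T cells.

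The promoters of both groups were read from RefSeq (build GRCm38.p6), since the elements named above are what distinguishes the 2 responses at the DNA level. RefSeq windows from 250 bases before to 50 bases after the start were at hand for 30 of the 40 genes, 18 type I and 12 gamma-type. Both strands were searched for the ISRE core GAAANNGAAA and for the GAS pattern TTCNNNGAA, where N is any base. The ISRE core was in a window of 13 of the 30 genes (43.3%), 8 of 18 type I and 5 of 12 gamma-type, against 3.99% of all 27025 genes with a window. The GAS pattern was in 9 of the 30 (30%), 4 of 18 type I and 5 of 12 gamma-type, against 9.55% of all genes. The ISRE core was thus found in a like share of both lists. Among the 26 measured genes with a window, 10 held the ISRE core and 8 the GAS pattern. Some matches of the 2 patterns overlap, as in the window of Bst2. A match is a run of letters and not a shown binding site.

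The stretches below belong to genes whose levels are described in full further on, and each gives the 180 bases before a start in the direction of the gene, with matches in capitals. In the first 5 the capitals mark the ISRE core or its reverse complement. In Irf8 and Psmb8 they mark the GAS pattern. Psmb9 and Tap1 start 225 bases apart on opposite strands and share the last stretch, given on the + strand, which holds neither pattern.
Isg15 (chr4:156200819-156200998, - strand): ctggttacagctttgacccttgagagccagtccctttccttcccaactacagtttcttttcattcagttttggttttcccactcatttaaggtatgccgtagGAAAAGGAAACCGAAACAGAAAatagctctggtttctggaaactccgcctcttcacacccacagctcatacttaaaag
Ifit3 (chr19:34583349-34583528, + strand): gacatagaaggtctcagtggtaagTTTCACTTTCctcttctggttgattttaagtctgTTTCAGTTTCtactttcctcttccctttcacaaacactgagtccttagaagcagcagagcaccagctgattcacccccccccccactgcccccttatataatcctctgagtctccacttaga
Rsad2 (chr12:26456453-26456632, - strand): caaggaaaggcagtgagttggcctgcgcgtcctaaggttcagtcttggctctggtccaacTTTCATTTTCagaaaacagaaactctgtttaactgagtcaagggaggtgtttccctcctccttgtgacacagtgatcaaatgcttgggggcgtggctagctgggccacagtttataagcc
Gbp3 (chr3:142559864-142560043, + strand): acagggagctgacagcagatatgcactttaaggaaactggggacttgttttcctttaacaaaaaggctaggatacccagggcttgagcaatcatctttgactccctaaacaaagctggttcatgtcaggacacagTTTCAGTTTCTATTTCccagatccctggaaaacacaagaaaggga
Irgm1 (chr11:48871421-48871600, - strand): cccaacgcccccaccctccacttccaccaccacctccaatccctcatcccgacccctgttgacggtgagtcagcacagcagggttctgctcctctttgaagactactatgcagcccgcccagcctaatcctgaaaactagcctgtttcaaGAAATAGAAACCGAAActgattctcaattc
Irf8 (chr8:120736178-120736357, + strand): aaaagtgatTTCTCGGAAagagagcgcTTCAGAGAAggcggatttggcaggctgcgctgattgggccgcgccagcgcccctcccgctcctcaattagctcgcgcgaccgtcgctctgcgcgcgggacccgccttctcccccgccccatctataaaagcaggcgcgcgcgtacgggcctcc
Psmb8 (chr17:34198015-34198194, + strand): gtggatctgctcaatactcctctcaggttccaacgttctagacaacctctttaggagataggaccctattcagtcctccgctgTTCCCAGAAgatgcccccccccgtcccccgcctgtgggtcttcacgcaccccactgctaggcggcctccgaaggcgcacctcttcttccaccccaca
Psmb9 and Tap1 (chr17:34187331-34187555, + strand): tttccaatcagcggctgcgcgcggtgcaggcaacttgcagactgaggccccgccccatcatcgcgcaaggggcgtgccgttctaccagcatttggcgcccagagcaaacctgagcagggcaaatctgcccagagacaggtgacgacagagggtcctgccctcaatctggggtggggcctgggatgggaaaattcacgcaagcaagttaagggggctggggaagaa

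Between 13280 and 14357 probes were detected per array, and the ranges of the 7 groups overlapped. The 6 smooth muscle markers, among them Acta2 and Myh11, were detected on all 32 arrays. RNA of placenta or yolk sac was present in some libraries: the log2 of the summed signal of the 5 measured placenta or yolk sac genes was 11.98 in E10.5 replicate 4, 15.34 in E17.5 replicate 2 and 12.80 in E17.5 replicate 5, and at most 9.73 in the other mice. Calls and list means that change without these mice are also given without them. Earlier work on these data had set 4 further libraries aside for the same reason, E12.5 replicates 1 and 3 and E15.5 replicates 2 and 3, in which the same sum was between 7.18 and 8.37, so that comparisons were also run without all 7.

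Within pregnancy most of the list was low at E6.5, higher by E8.5, around its highest at E10.5 and E12.5 and lower again towards term. Among the 6 pregnant time points, the lowest mean fell at E6.5 for 26 of the 36 genes (72.2%), against 21.7% of all genes. It did so for 19 of 23 type I and 7 of 13 gamma-type genes. The highest mean fell at E10.5 for 11 genes and at E12.5 for another 11 (30.6% each), against 13.1% and 11.1% of all genes. By the moderated F test of limma over the pregnant time points, 18 of 36 genes differed, 11 type I and 7 gamma-type, where 37.9% of all genes did. NP lay below every pregnant mean for 10 genes (27.8%), 8 of them type I, and above every pregnant mean for 3 (8.33%). Over all genes these shares were 17.9% and 22.8%.

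**Figure D1:**
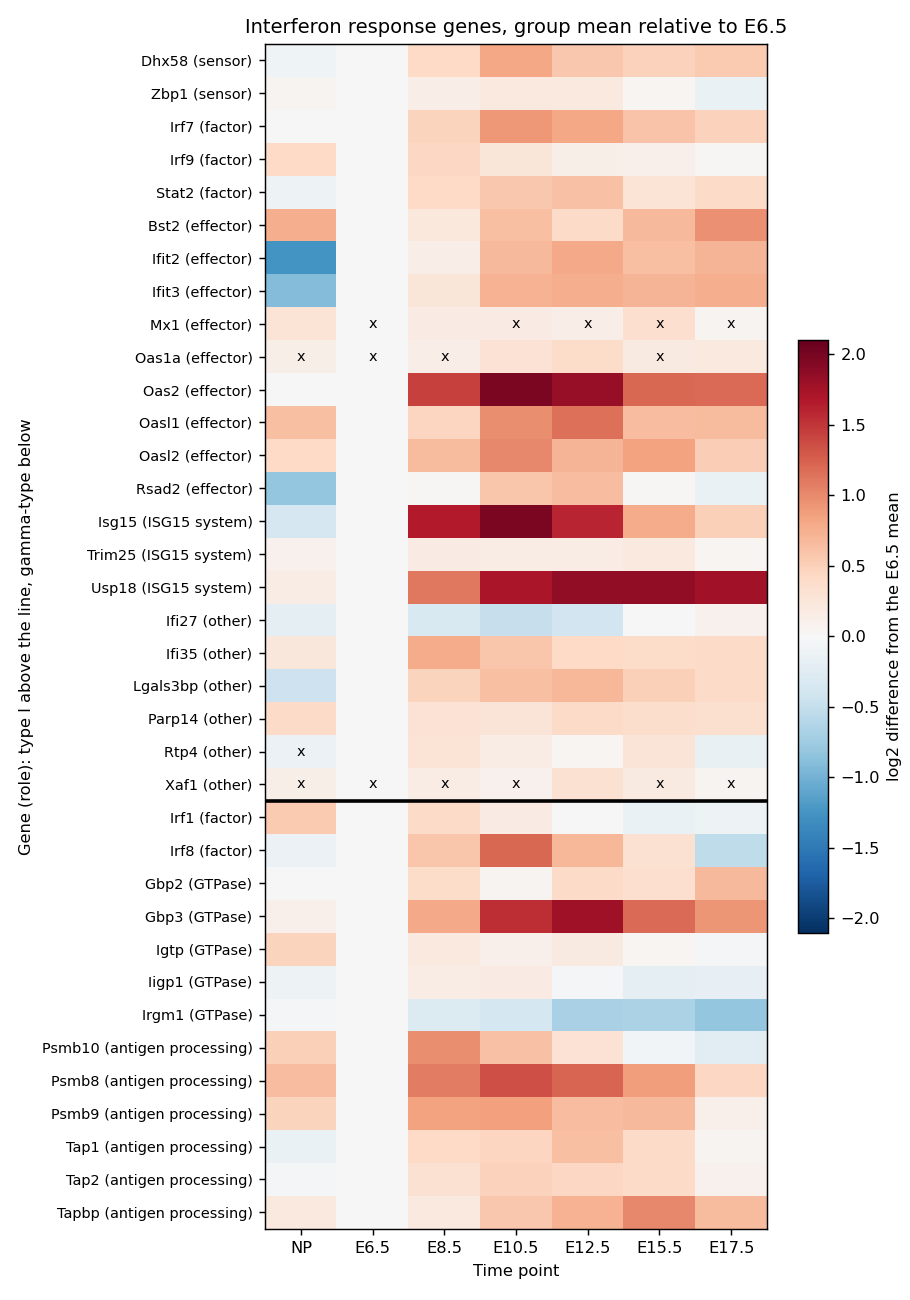
Colour gives, for each of the 36 measured genes (rows, with the role in brackets), the group mean at each time point minus the mean at E6.5, in log2 units; red is higher than E6.5 and blue lower, a cross marks a group in which no array detected the gene, and the black line parts 23 type I genes above from 13 gamma-type genes below. Isg15, Oas2, Usp18 and Gbp3 are the darkest red at E10.5 and E12.5, and Irgm1 turns blue.

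The mean over the genes of a list, computed per mouse, shows how far the lists moved together. For type I genes it was 6.80 ± 0.22 on the log2 scale in NP (SD, n = 4) and 6.83 ± 0.16 at E6.5 (n = 4), then 7.26 ± 0.11 at E8.5 (n = 4) and 7.48 ± 0.14 at E10.5 (n = 5). Afterwards it was 7.45 ± 0.22 at E12.5, with 7.32 ± 0.11 in E15.5 mice and 7.25 ± 0.14 by E17.5 (n = 5 each). Without the 3 libraries highest in placenta genes it was 7.44 ± 0.13 at E10.5 (n = 4), no higher than at E12.5, and 7.20 ± 0.08 by E17.5 (n = 3). The 4 mice at E6.5 lay between 6.72 and 7.06 and the 4 at E8.5 between 7.16 and 7.41, with no overlap. For gamma-type genes the mean was 7.65 ± 0.17 in NP, 7.46 ± 0.07 at E6.5, then 7.93 ± 0.23 at E8.5 before a high of 8.02 ± 0.12 at E10.5. From 7.95 ± 0.25 at E12.5 it went to 7.79 ± 0.17 at E15.5 before reaching 7.55 ± 0.12 near term at E17.5. Without the same 3 libraries the gamma-type mean was 8.05 ± 0.12 at E10.5 and 7.59 ± 0.12 near term. All 4 gamma means at E6.5 (7.39 to 7.52) lay below all 4 at E8.5 (7.73 to 8.26), and the E17.5 mice (7.40 to 7.67) overlapped those at E6.5. In type I genes the E17.5 mice (7.13 to 7.47) did not overlap those at E6.5. The 2 means come from different probes, so only their course over time, not their heights, can be compared. The gamma mean minus the type I mean of the same mouse was 0.85 ± 0.23 in NP, 0.63 ± 0.13 at E6.5, then 0.50 ± 0.14 by E12.5 and lowest, 0.30 ± 0.15, near term at E17.5. Single mice ranged from 0.37 to 0.70 at E12.5 and from 0.11 to 0.50 at E17.5, so these groups overlapped. The lowest E17.5 mice were replicates 2 and 5, both among the libraries highest in placenta genes. Without them the E17.5 means of 7.59 (gamma-type) and 7.20 (type I) lay further apart than with them. No test is given for these scores, since the lists were drawn up with earlier results of these data known.

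**Figure D2:**
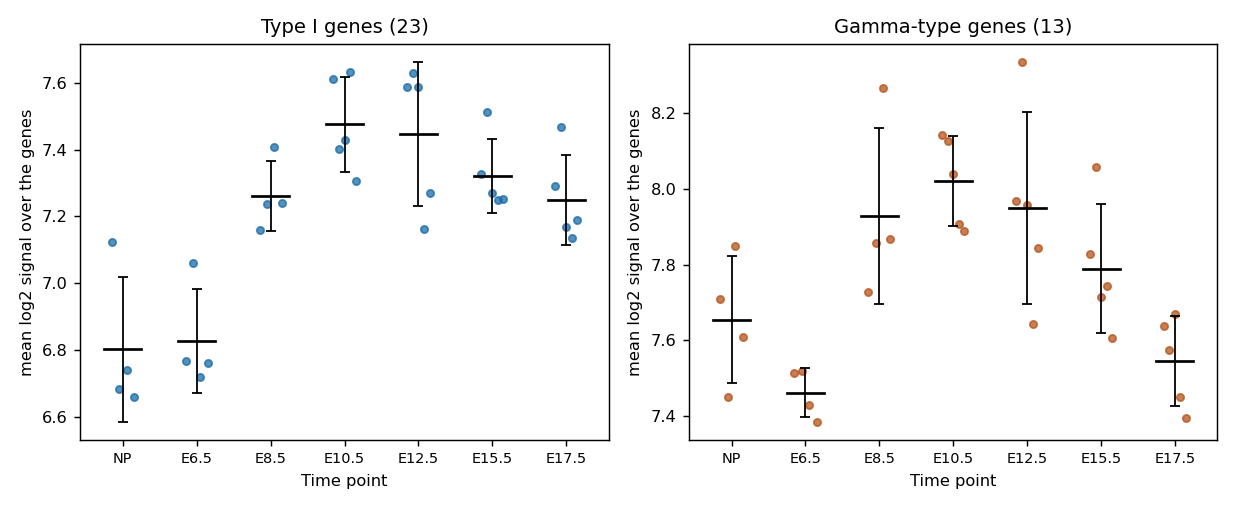
Each point is 1 mouse, with its mean log2 signal over the 23 measured type I genes (left) or the 13 gamma-type genes (right) against time point; the bar is the group mean and the whiskers 1 SD. Both lists are lowest at E6.5 among the pregnant groups, and the gamma mean at E17.5 is back near its E6.5 level. The 2 panels have different vertical ranges.

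Isg15 and Usp18 moved furthest of the genes that act on protein tagging. Isg15 is the ubiquitin-like modifier that interferon-treated cells attach to proteins. Its log2 signal was 7.36, 6.55, 7.20 and 7.23 in the NP mice, 7.72, 7.56, 7.12 and 7.32 at E6.5, and 8.45, 9.16, 9.55 and 9.26 at E8.5. The lowest E8.5 mouse lay above the highest E6.5 mouse. Isg15 then reached 9.76, 9.07, 9.01, 9.98 and 9.18 at E10.5 and 9.32, 9.46, 9.54, 8.21 and 8.63 at E12.5. At E15.5 it was 8.23, 8.81, 8.08, 7.77 and 8.18, and at E17.5 7.74, 8.62, 7.75, 8.10 and 7.43. The rise from E6.5 to E8.5 was 1.67 ± 0.29 (SE), a 3.19-fold change with an adjusted p of 0.00109. From E12.5 to E17.5 Isg15 fell by 1.10 ± 0.26, to a level 2.15-fold lower (adjusted p = 0.00674). Without the 7 libraries set aside above, that fall was 0.903 with an adjusted p of 0.117, and without the 3 highest in placenta genes it kept its call.

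Usp18 removes Isg15 from proteins and also dampens the type I receptor. It measured 7.53, 6.64, 7.06 and 6.88 in NP, 6.56, 7.78, 6.68 and 6.49 at E6.5 and 7.67, 7.94, 8.06 and 8.29 at E8.5. E6.5 replicate 2 stood above the other 3 mice of its group and inside the E8.5 range. At E12.5 the values were 9.23, 8.91, 9.10, 8.13 and 8.32, all above the E6.5 mice, and at E17.5 they were 8.81, 9.61, 8.20, 8.37 and 8.26. Its difference between E12.5 and E17.5 was -0.09 ± 0.29 (adjusted p = 0.927), and whether this differs from the fall of Isg15 was not tested. It rose by 1.86 ± 0.30 from E6.5 to E12.5, 3.63-fold (adjusted p = 2.8e-05). Its 3 probes rose by 1.86, 1.60 and 1.53 in that comparison. The earlier step from E6.5 to E8.5 (1.11 ± 0.32, adjusted p = 0.0447) was lost when any of E6.5 replicates 1, 3 and 4 or E8.5 replicates 2, 3 and 4 was left out (adjusted p from 0.0814 to 0.130), under cyclic loess scaling (0.15) and without background correction (0.101). Trim25, a ligase that uses Isg15 and activates RNA sensors, had group means between 5.18 and 5.38 and no call in any comparison.

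Of the 9 measured antiviral effectors, Ifit2 and Ifit3 already differed between NP and E6.5. The genes are neighbours on chromosome 19. Ifit2 measured 5.94, 5.76, 6.37 and 6.02 in NP, 7.06, 7.16, 7.58 and 7.33 at E6.5 and 7.77, 7.35, 7.33 and 7.24 at E8.5. At E12.5 it was 8.46, 8.10, 8.33, 7.85 and 7.62, and at E17.5 8.29, 8.39, 7.77, 7.57 and 7.96. No NP mouse reached the level of any pregnant mouse in these groups. The step from NP to E6.5 was 1.26 ± 0.18, 2.39-fold (adjusted p = 2.3e-05), and the whole step from NP to E12.5 was 2.05 ± 0.18, 4.14-fold (adjusted p = 3.59e-10). From E6.5 to E12.5 it rose by 0.79 ± 0.18 (adjusted p = 0.000978). A second Ifit2 probe gave 0.42 in that comparison, with an adjusted p of 0.334.

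Ifit3 measured 6.22, 5.67, 6.18 and 6.00 in NP, 6.99, 7.66, 6.55 and 6.54 at E6.5 and 7.78, 7.93, 7.85, 7.55 and 7.35 at E12.5. Here too all NP mice were below all pregnant mice. It rose by 0.92 ± 0.23 from NP to E6.5 (adjusted p = 0.00883), a call that was lost without E6.5 replicate 2, the highest mouse of its group (0.678, adjusted p = 0.0655). From E6.5 to E12.5 the rise was 0.76 ± 0.22 (adjusted p = 0.00905), and 2 other Ifit3 probes gave 0.63 (adjusted p = 0.0219) and 0.27 (adjusted p = 0.492). A near-identical gene, Ifit3b, may share this signal, so the value for Ifit3 alone is uncertain. At E17.5 the mice measured 7.99, 8.30, 7.40, 7.74 and 7.07, and the difference from E12.5 was 0.01 ± 0.21 (adjusted p = 0.992).

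Oas2 makes the messenger that switches on the RNA-cutting enzyme RNase L. Its signal was 7.93, 6.71, 5.82 and 6.03 in NP, with replicate 1 far above the rest, and 6.34, 7.30, 6.65 and 6.17 at E6.5. At E8.5 it was 7.85, 7.99, 8.59 and 7.75, at E10.5 9.03, 8.94, 8.30, 8.41 and 8.30, and at E12.5 8.71, 8.75, 8.66, 8.29 and 7.86. All mice of these 3 groups exceeded all E6.5 mice. Oas2 rose 2.69-fold from E6.5 to E8.5 (1.43 ± 0.32, adjusted p = 0.0095) and 3.57-fold from E6.5 to E12.5 (1.84 ± 0.30, adjusted p = 2.95e-05). At E15.5 the values were 7.99, 8.23, 7.43, 7.45 and 8.00, and at E17.5 7.87, 7.87, 7.60, 7.95 and 7.72, so that E17.5 was 0.65 ± 0.28 below E12.5 without passing the test (adjusted p = 0.186).

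Rsad2, which makes the antiviral enzyme viperin, measured 6.58, 6.63, 7.26 and 6.75 in NP, 7.49, 7.87, 7.18 and 7.95 at E6.5 and 8.29, 8.47, 8.07, 8.21 and 8.29 at E12.5. The NP and E6.5 mice overlapped in 1 mouse each, and the E12.5 mice were above both. At E17.5 they were back at 7.30, 8.14, 7.36, 7.18 and 7.46. Rsad2 rose from NP to E6.5 (0.82 ± 0.23, adjusted p = 0.0199) and from E6.5 to E12.5 (0.64 ± 0.22, adjusted p = 0.0256), and fell by 0.78 ± 0.20 from E12.5 to E17.5 (adjusted p = 0.0137). The first call was lost without NP replicates 1 or 2 or E6.5 replicates 2 or 4 (adjusted p from 0.0614 to 0.0804), and the second without E6.5 replicates 1 or 3 or E12.5 replicate 2 (from 0.0604 to 0.123).

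Of the other 5 effectors, Oasl1 and Oas1a had a call. Oasl1, an inhibitor of Irf7 translation, had a mean of 4.77 at E6.5, against 5.94 in E12.5 mice, and rose by 1.16 ± 0.33 (adjusted p = 0.00844), a call that was lost without the 7 libraries (adjusted p = 0.110). Only 1 of the 4 E6.5 arrays detected Oasl1 and its E6.5 mean was below the lowest detected signal there (4.99, averaged over the arrays), so the size of this rise is uncertain and no fold is given. In NP the 4 mice ranged from 4.30 to 6.91 for Oasl1, wider than any pregnant group. Its neighbour Oasl2, whose product acts in RNA sensing in the mouse, differed by 0.72 ± 0.28 between E6.5 and E12.5 (adjusted p = 0.0608). Bst2, the tether that holds budding viruses on the cell surface, had means between 9.57 and 10.53 and no call. Mx1, a dynamin-like antiviral GTPase, was detected on 2 of 32 arrays and Oas1a on 3, so both were near the limit of detection. Oas1a passed from E6.5 to E12.5 (means 4.39 and 4.79, adjusted p = 0.0412), but no E6.5 array detected it and its E12.5 mean was below the lowest detected signal, so no fold is given. That call was also lost without any of E6.5 replicates 1, 3 and 4 or E12.5 replicates 1, 2 and 3 (adjusted p from 0.0583 to 0.118).

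**Figure D3:**
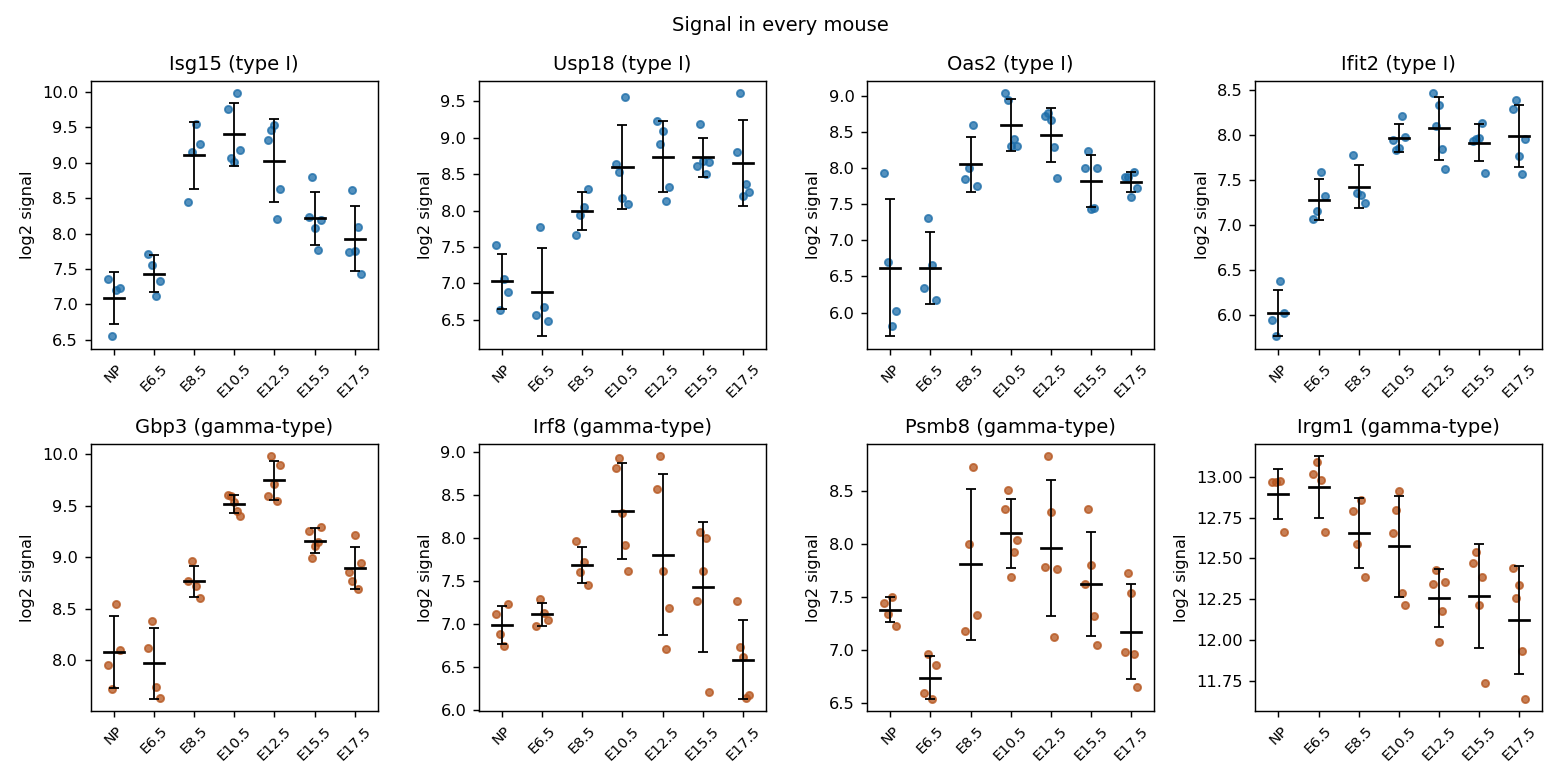
Log2 signal (vertical axis) of single genes in every mouse (points) by time point, with group means as bars and SD as whiskers. The Isg15, Oas2 and Gbp3 points at E8.5 all lie above those at E6.5, while the Irgm1 points at E12.5 lie below those at E6.5.

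Among the RNA sensors and signalling factors of the type I list, Dhx58 and Irf7 passed the test over pregnancy. Dhx58 is a helicase that tunes the RIG-I family of RNA sensors. It measured 6.48, 5.68, 5.97 and 5.68 in NP, 6.15, 6.29, 5.69 and 6.03 at E6.5 and 7.07, 6.85, 6.99, 6.73 and 6.58 at E10.5. At E12.5 the mice measured 6.60, 6.77, 6.43, 6.63 and 6.59 and did not overlap those at E6.5. The rise from E6.5 to E12.5 was 0.57 ± 0.15 (adjusted p = 0.00509). At E17.5 Dhx58 was still at 6.40, 6.53, 6.70, 6.80 and 6.54, a difference of -0.01 ± 0.14 from E12.5 (adjusted p = 0.982). Zbp1, a sensor of Z-form nucleic acids, had means from 6.16 to 6.51 and no call.

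Irf7 is the factor that amplifies type I interferon production. It was detected on 27 of 32 arrays and measured 4.85, 5.22, 5.21 and 5.14 at E6.5 and 6.36, 6.00, 6.27, 5.52 and 5.49 at E12.5, with no overlap. It rose by 0.82 ± 0.25 (adjusted p = 0.0142). Leaving out E6.5 replicate 1 brought the adjusted p to 0.0527, and leaving out the 7 libraries to 0.147. Stat2, the partner of Irf9 in the type I complex, rose by 0.61 ± 0.18 between the same days (adjusted p = 0.0125), and lost this call without E12.5 replicate 3 (adjusted p = 0.0506) and without the 7 libraries (adjusted p = 0.102). Irf9 had means from 6.63 to 7.07 and no call.

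The gamma list held 2 factors, of which Irf8 passed the F test over pregnancy (adjusted p = 0.00286). Irf8, a regulator of macrophage and dendritic cell development, measured 6.98, 7.29, 7.13 and 7.05 at E6.5, with 7.96, 7.61, 7.72 and 7.46 in E8.5 mice, and 8.81, 8.93, 8.29, 7.92 and 7.62 at E10.5. At E12.5 the spread was wide, at 8.57, 8.96, 7.62, 6.70 and 7.19, and at E17.5 the values were 7.27, 6.73, 6.62, 6.14 and 6.18, the lowest group of the series. Irf8 fell by 1.22 ± 0.34 from E12.5 to E17.5, 2.33-fold (adjusted p = 0.022). This call was lost without any of E12.5 replicates 1 and 2 or E17.5 replicates 4 and 5 (adjusted p from 0.0592 to 0.101), without the 3 libraries highest in placenta genes (adjusted p = 0.107) and without the 7 (adjusted p = 0.370). Irf1, an early interferon gamma target, measured 7.34, 7.12, 7.56 and 7.04 in NP and 6.85, 6.63, 6.88, 6.68 and 6.57 at E12.5, and fell by 0.54 ± 0.18 (adjusted p = 0.0197). The Irf1 call was lost without NP replicate 3 (adjusted p = 0.087) and under cyclic loess scaling (adjusted p = 0.0751). By probe, the F test over pregnancy gave an adjusted p of 0.107 for this one. The other Irf1 probes gave 0.0156, 0.0393, 0.25 and 0.573.

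Lgals3bp, Ifi35 and Ifi27 changed most among the remaining type I genes. Lgals3bp is a secreted glycoprotein that binds galectins. It measured 9.47, 9.81, 9.36 and 9.53 in NP, 9.81, 10.25, 9.85 and 10.00 at E6.5 and 10.44, 10.46, 10.46 and 10.43 at E8.5. The E8.5 mice lay close together and above every E6.5 mouse. At E12.5 the values were 10.68, 10.94, 10.91, 10.52 and 10.34, and at E17.5 10.26, 10.64, 10.37, 10.32 and 10.33. From NP to E12.5 Lgals3bp rose 2.20-fold (1.14 ± 0.12, adjusted p = 1.55e-08), and from E6.5 to E12.5 by 0.70 ± 0.12 (adjusted p = 4.88e-05). The smaller steps from NP to E6.5 (0.43 ± 0.13, adjusted p = 0.0265) and from E6.5 to E8.5 (0.47 ± 0.13, adjusted p = 0.0298) were lost on leaving out single mice, the first without NP replicates 1, 3 or 4 or E6.5 replicates 2 or 4 (adjusted p from 0.0551 to 0.129) and the second without E6.5 replicates 1, 3 or 4 or E8.5 replicates 2, 3 or 4 (from 0.0531 to 0.0982) or under cyclic loess scaling (0.0585).

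Ifi35, which binds other interferon-induced proteins in the cytoplasm, measured 7.64, 7.68, 7.53 and 7.77 at E6.5 and 8.00, 8.43, 8.66 and 8.63 at E8.5, again with no overlap. It rose by 0.78 ± 0.16 (adjusted p = 0.00528). By E12.5, at 7.80, 8.34, 8.12, 8.09 and 8.03, the rise over E6.5 was 0.42 ± 0.15 (adjusted p = 0.0375), and it was lost without any of E6.5 replicates 1, 2 and 3 or E12.5 replicates 2, 3 and 4 (adjusted p from 0.0538 to 0.104).

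Ifi27, a small hydrophobic protein of mitochondria or the nuclear envelope, was the 1 type I gene that fell from E6.5 to E12.5. It measured 11.35, 11.47, 11.59 and 11.38 at E6.5, 10.99, 10.95, 11.28, 10.79 and 10.80 at E10.5, while the E12.5 mice gave 11.15, 11.09, 10.90, 11.02 and 11.10. Every E6.5 mouse was above every mouse of both later groups. At E17.5 Ifi27 was at 11.84, 11.68, 11.53, 11.06 and 11.55. It fell by 0.40 ± 0.13 from E6.5 to E12.5 (adjusted p = 0.0244) and rose by 0.48 ± 0.12 from E12.5 to E17.5 (adjusted p = 0.0132). Both probes moved in these directions. The second, brighter probe gave -0.30 (adjusted p = 0.0229) and 0.60 (adjusted p = 8.25e-05). The losses that follow are those of the first probe. The fall was lost without E6.5 replicates 2 or 3 or E12.5 replicate 3 (adjusted p from 0.0539 to 0.0834), under cyclic loess scaling (adjusted p = 0.10) and without the 7 libraries (adjusted p = 0.125). The rise was lost without E17.5 replicate 1 (adjusted p = 0.0548), without the 3 libraries highest in placenta genes (adjusted p = 0.0917) and without the 7 (adjusted p = 0.30).

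Of the last 3, Parp14, an ADP-ribosyltransferase, rose by 0.40 ± 0.14 from E6.5 to E12.5 (adjusted p = 0.0301), which was lost without any of E6.5 replicates 1, 3 and 4 or E12.5 replicates 3 and 4 (adjusted p from 0.058 to 0.131) and without the 7 libraries (adjusted p = 0.112). Xaf1, a pro-apoptotic protein, was detected on 2 arrays, both at E12.5. Rtp4, a chaperone of membrane receptors, was detected on 14 arrays and on none of NP.

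The gamma-type GTPases split into 1 strong riser, 1 gene that fell and 3 with no call. Gbp3 belongs to the guanylate-binding proteins, which attack the membranes around intracellular microbes. It measured 7.95, 7.72, 8.55 and 8.10 in NP, 8.12, 8.38, 7.74 and 7.63 at E6.5 and 8.77, 8.97, 8.72 and 8.60 at E8.5. Then it reached 9.61, 9.59, 9.54, 9.44 and 9.40 at E10.5 and 9.60, 9.98, 9.71, 9.55 and 9.90 at E12.5. These steps from E6.5 to E8.5 and from E8.5 to E10.5 each left no overlap between groups. At E15.5 Gbp3 was at 9.26, 8.99, 9.11, 9.15 and 9.30, and at E17.5 at 8.85, 8.76, 9.21, 8.69 and 8.95, below every E12.5 mouse but above every E6.5 mouse. It rose by 0.80 ± 0.16 from E6.5 to E8.5 (adjusted p = 0.00348) and by 0.75 ± 0.15 from E8.5 to E10.5 (adjusted p = 0.00269). From E6.5 to E12.5 it rose 3.43-fold (1.78 ± 0.15, adjusted p = 7.54e-10), and the second Gbp3 probe rose by 1.67. It fell by 0.85 ± 0.14 from E12.5 to E17.5 (adjusted p = 0.000167). The fall of 0.59 ± 0.14 from E12.5 to E15.5 (adjusted p = 0.0269) was lost without any of E12.5 replicates 2, 3 and 5 or E15.5 replicates 2, 3 and 4 (adjusted p from 0.052 to 0.0955).

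Irgm1, a regulator of the immunity-related GTPases and of autophagy, was the 1 gamma-type gene that fell from E6.5 to E12.5. It measured 13.02, 13.09, 12.98 and 12.66 at E6.5, with 12.79, 12.59, 12.86 and 12.38 in E8.5 mice, and 12.34, 12.43, 11.99, 12.18 and 12.36 at E12.5. The E12.5 mice lay below all E6.5 mice. At E17.5 Irgm1 was at 12.44, 12.26, 12.34, 11.93 and 11.64. The fall from E6.5 to E12.5 was 0.68 ± 0.17, 1.60-fold (adjusted p = 0.00343). A second Irgm1 probe did not show it (-0.05, adjusted p = 0.857), so the fall rests on 1 of 2 probes. The promoter of Irgm1 shown above holds overlapping ISRE cores, as that of Isg15 does, and Isg15 rose over the same days. Whether these cores have a part in either course was not tested. Igtp, Iigp1 and Gbp2 had no call: their differences between E6.5 and E12.5 were 0.18, -0.02 and 0.40. Iigp1 was detected on 16 of 32 arrays. Its group means, from 4.89 to 5.26, were near the lowest detected signal, so a change could be missed. The Gbp2 probe used was detected on 25 arrays. A brighter Gbp2 probe, detected on all 32, gave 0.19 (adjusted p = 0.480), and another, detected on 1 array, gave 0.07. Iigp1 and Gbp2 have near-identical copies that could share their probes.

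All 6 measured genes of antigen processing were higher at E8.5 than at E6.5, and 2 passed the test. Over all genes 6397 of 13439 were higher and 2.14% rose. For Tapbp, 1 of 4 arrays at E6.5 and 1 of 4 at E8.5 detected the probe used, so its direction is uncertain. Psmb8, Psmb9 and Psmb10 encode the catalytic subunits that turn the proteasome into the immunoproteasome, and Tap1 and Tap2 form the pump that brings its peptides to MHC class I. Psmb8, Psmb9, Tap1 and Tap2 are neighbours on chromosome 17, inside the MHC. Psmb10 measured 9.26, 9.23, 8.89 and 9.24 at E6.5, with 9.70, 9.85, 10.55 and 10.41 in E8.5 mice, and 9.92, 9.73, 9.75, 9.63 and 9.86 at E10.5. No E8.5 mouse overlapped E6.5. By E12.5, at 9.11, 9.76, 9.61, 9.38 and 9.40, part of the rise was gone, and at E17.5 Psmb10 was at 8.75, 8.84, 9.08, 9.21 and 8.81. The rise to E8.5 was 0.97 ± 0.18, 1.96-fold (adjusted p = 0.00149), with a second probe at 0.84. The fall of 0.52 ± 0.16 from E12.5 to E17.5 (adjusted p = 0.0402) was lost without any of E12.5 replicates 2, 3 and 5 or E17.5 replicates 1, 2 and 5 (adjusted p from 0.0525 to 0.129), and without the 3 libraries highest in placenta genes (adjusted p = 0.207) or the 7 (adjusted p = 0.305).

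Psmb9 measured 8.34, 8.30, 8.29 and 8.18 at E6.5, with 8.98, 8.90, 9.78 and 8.81 in E8.5 mice, and 9.03, 9.51, 9.02, 8.53 and 8.56 at E12.5. Each later mouse exceeded each E6.5 mouse, and E8.5 replicate 3 stood apart from its group. The steps were 0.84 ± 0.23 to E8.5 (adjusted p = 0.0387) and 0.65 ± 0.22 to E12.5 (adjusted p = 0.0281). The first was lost without any 1 of the 4 E6.5 mice or of E8.5 replicates 2 and 3 (adjusted p from 0.0512 to 0.171), and under cyclic loess scaling (0.0603). The second was lost without E6.5 replicates 2, 3 or 4 or E12.5 replicates 1, 2 or 3 (from 0.052 to 0.101) and without the 7 libraries (0.0966).

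Psmb8 was more variable, at 6.60, 6.96, 6.54 and 6.87 at E6.5, with 7.18, 8.00, 8.73 and 7.34 in E8.5 mice, and 7.79, 8.83, 8.30, 7.13 and 7.77 at E12.5. E6.5 lay below both later groups without overlap. Its rise to E12.5 was 1.22 ± 0.30, 2.33-fold (adjusted p = 0.00245), while the difference at E8.5, 1.07 ± 0.31, just missed the threshold (adjusted p = 0.0502). At E17.5 Psmb8 measured 6.98, 7.73, 7.54, 6.97 and 6.65, 0.79 ± 0.28 below E12.5 (adjusted p = 0.0846).

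Tap1 rose by 0.63 ± 0.18 from E6.5 to E12.5 (adjusted p = 0.00696), from 6.10, 5.40, 5.96 and 5.74 to 6.35, 6.64, 6.57, 6.19 and 6.41. At E17.5, at 5.62, 6.17, 6.04, 5.95 and 5.53, it was below every E12.5 mouse, having fallen by 0.57 ± 0.17 (adjusted p = 0.0281). This fall was lost without any of E12.5 replicates 2 and 3 or E17.5 replicates 1 and 5 (adjusted p from 0.0752 to 0.0974), without the 3 libraries highest in placenta genes (adjusted p = 0.0853) and without the 7 (adjusted p = 0.183). Tap2 had means from 9.70 to 10.24 and differed by 0.43 ± 0.18 between E6.5 and E12.5 (adjusted p = 0.0707). Tapbp, the chaperone that couples Tap to MHC class I, differed by 0.73 ± 0.30 (adjusted p = 0.0723). Only 1 of 4 E6.5 arrays detected this probe. Its E6.5 mean of 4.80 was below the lowest detected signal (4.99), so this size is uncertain. A second probe of Tapbp rose by 0.62 (adjusted p = 0.00644).

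Counted over the list, from NP to E6.5 Ifit2, Ifit3, Rsad2 and Lgals3bp rose, all type I, and none fell. Among all genes 4.59% rose and 3.63% fell in this comparison. A count of 4 of 36 is a larger share than that of all genes that rose, but it is small and depended on single mice. The directions were mixed, with 15 genes higher and 21 lower. Without NP replicate 1, or without E6.5 replicate 4, 2 rose and none fell, and without E6.5 replicate 2, 1 rose and 1 fell.

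The step from E6.5 to E8.5 went one way. There 34 of 36 genes were higher and 8 rose, namely Isg15, Oas2, Usp18, Ifi35, Lgals3bp, Gbp3, Psmb9 and Psmb10, where 2.14% of all genes rose. None fell, where 1.7% of all genes did. The median difference was 0.40 over the list, 0.30 in type I and 0.41 in gamma-type genes, against -0.02 over all genes. Without background correction of the intensities the type I median was 0.15. At an unadjusted p under 0.05, 15 genes were higher and 1 lower. The count was 5 without E6.5 replicates 1, 3 or 4 or E8.5 replicates 2 or 3, and also 5 under cyclic loess scaling.

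The later steps between neighbouring days were small. From E8.5 to E10.5 Gbp3 rose and none fell (2.25% and 2.37% of all genes). From E10.5 to E12.5 none rose or fell by limma (0.625% and 0.729% of all genes), and at an unadjusted p under 0.05 none was higher and Psmb10 was lower. From E12.5 to E15.5 Gbp3 fell and none rose (0.558% and 0.871% of all genes). From E15.5 to E17.5 none passed in either direction (0.305% of all genes rose and 0.134% fell), with 0 higher and 5 lower at an unadjusted p under 0.05.

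Over the longer span from E6.5 to E12.5, 18 genes rose and 2 fell, against 11.6% and 15.3% of all genes. Of the 23 type I genes 14 rose and Ifi27 fell, and of the 13 gamma-type genes Gbp3, Psmb8, Psmb9 and Tap1 rose and Irgm1 fell. The median difference was 0.57 in type I and 0.43 in gamma-type genes, against -0.04 over all genes. Without background correction of the intensities the 2 medians were 0.33 and 0.26. Without the 7 libraries 12 genes rose and 1 fell, and without the 3 highest in placenta genes the counts stayed at 18 and 2. Under cyclic loess scaling the split of calls over all genes went from 1559 up and 2058 down to 1787 up and 1545 down, and that of the list from 18 and 2 to 19 and 1.

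From E12.5 to E17.5 the list moved down, with 32 of 36 genes lower. The median was -0.20 over the list, -0.19 in type I and -0.33 in gamma-type genes, and -0.01 over all genes. The type I median was -0.07 without background correction, and also -0.07 without the 7 libraries. Rsad2, Isg15, Irf8, Gbp3, Psmb10 and Tap1 fell and Ifi27 rose, so 6 fell where 3.8% of all genes did and 1 rose where 4.38% did. Of these 7 calls, those of Rsad2, Isg15 and Gbp3 remained without the 3 libraries highest in placenta genes, and those of Rsad2 and Gbp3 without the 7. The count was 4 without E12.5 replicate 2 or without E17.5 replicates 1 or 5.

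Between NP and E12.5, 13 genes rose (13.1% of all genes) and 2 fell (17.9%). The 10 type I risers were Ifit2, Isg15, Oas2, Usp18, Ifit3, Rsad2, Lgals3bp, Irf7, Stat2 and Dhx58, and the gamma-type risers were Gbp3, Tap1 and Tap2. Irf1 and Irgm1 fell. Under cyclic loess scaling the calls over all genes were 2201 up and 1818 down in place of 1761 and 2407, and neither Irf1 nor Irgm1 passed. The Tap2 call was lost without NP replicates 2 or 4 or E12.5 replicates 1, 2 or 3 (adjusted p from 0.0602 to 0.202), and that of Irf7 without NP replicate 2 (0.0598). Without the 7 libraries neither Tap2 nor Irf7 passed (adjusted p = 0.181 and 0.124). The comparisons that end or start at E6.5 or E12.5 share those mice, so their counts are not independent.

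**Figure D4:**
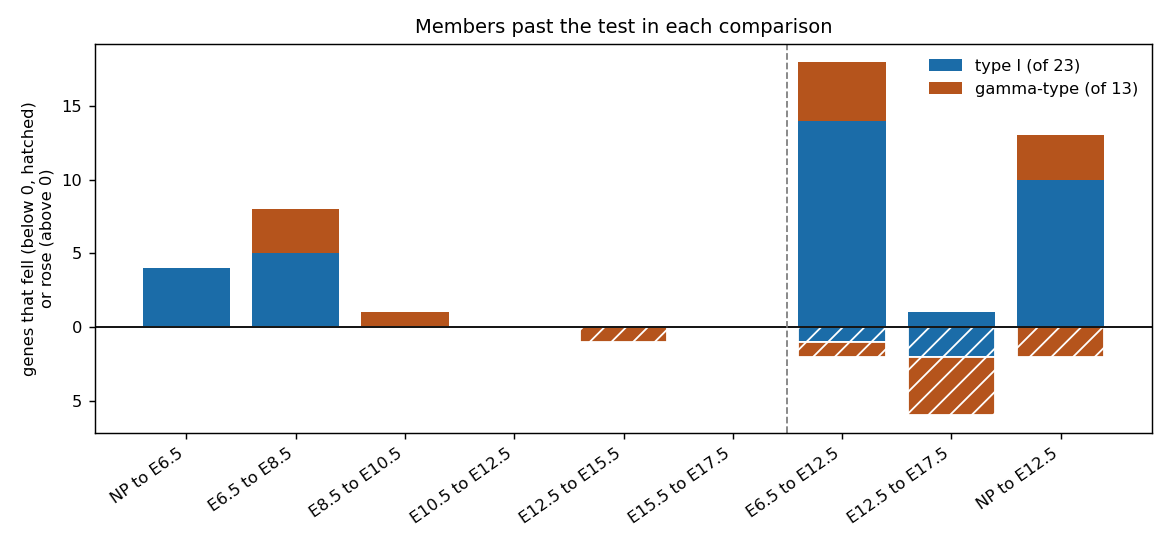
Bars give how many of the 36 measured genes rose (above 0) or fell (below 0, hatched) in each comparison, stacked by type I (blue) and gamma-type genes (orange), with comparisons of neighbouring days left of the dashed line. The long bars belong to E6.5 to E12.5 and NP to E12.5, with 18 and 13 genes up.

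Markers of some other cell types changed over the same days, and not all of them followed the course of the list. The summed signal of 11 natural killer cell markers, on the log2 scale, ranged from 8.29 to 9.72 in NP, from 9.31 to 9.57 at E6.5, from 11.23 to 11.55 at E8.5 and from 11.74 to 13.08 at E10.5. It ranged from 10.96 to 13.20 at E12.5, from 10.26 to 12.17 at E15.5 and from 9.13 to 10.94 at E17.5. Of the 11, 7 rose from E6.5 to E8.5, 7 from E6.5 to E12.5 and 8 from NP to E12.5, and 6 fell from E12.5 to E17.5. Over all genes these shares were 2.14%, 11.6%, 13.1% and 3.8%. No E6.5 array detected Gzmb, Gzmc or Ncr1, no NP array detected Gzma, Gzmc, Ncr1 or Eomes, and no E17.5 array detected Gzma, Ncr1 or Eomes. The sum of 5 pan-leukocyte markers ranged from 12.06 to 12.33 at E6.5, from 12.82 to 13.59 at E12.5 and from 12.31 to 12.45 at E17.5, with 3 of 5 rising from E6.5 to E12.5 and 3 falling after it. Of 7 measured T cell markers 3 rose from E6.5 to E12.5 and 3 fell to E17.5, with summed levels from 8.44 to 8.76, from 8.81 to 9.85 and from 8.33 to 8.70 on those days. Of 8 macrophage markers 3 rose from E6.5 to E12.5. The summed macrophage level ranged from 11.65 to 11.98 at E6.5, from 11.99 to 12.41 at E12.5 and from 11.84 to 12.37 at E17.5. Of 5 epithelial markers 4 fell from NP to E6.5 (3.63% of all genes) and 4 rose from E6.5 to E12.5. From E12.5 to E17.5, when most of the list was lower, 4 epithelial markers rose (4.38% of all genes) and none fell. No macrophage marker passed in that comparison. The sum of 6 neutrophil markers ranged from 10.96 to 13.20 at E12.5 and from 12.74 to 14.50 at E17.5, and 1 of them fell. The part of these cells in the interferon results was not tested.

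Single mice shaped several groups. NP replicate 1 was the highest of its group in 15 of 23 type I genes, and NP replicate 3 in 9 of 13 gamma-type genes. E10.5 replicate 4, 1 of the 3 libraries highest in placenta genes, was the highest of its group in 12 type I genes. At E12.5, replicate 2 was highest in 10 type I and 9 gamma-type genes, and replicate 4 lowest in 8 and 8. At E8.5, replicate 3 was highest in 10 and 8, and at E6.5, replicate 2 in 11 and 7.

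The other genes of the pathway, were a list of 38, of which 28 were measured. From E6.5 to E8.5 Socs3 and Eif2ak2 rose and none fell, where 2.14% and 1.7% of all genes did, and Eif2ak2 did not pass without E6.5 replicate 2 or E8.5 replicate 3 (adjusted p = 0.0632 and 0.0596). From E6.5 to E12.5 6 rose and 1 fell, where 11.6% and 15.3% of all genes did. From E12.5 to E17.5 5 rose and 2 fell, where the shares of all genes were 4.38% and 3.8%. By the F test over pregnancy 13 of 28 differed, against 37.9% of all genes.

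Of the ligands, Ifne, a type I interferon made constitutively by the epithelium of the female reproductive tract, climbed through pregnancy. It measured 4.81, 5.57, 4.78 and 4.96 at E6.5 and 5.96, 5.19, 4.79 and 5.60 at E8.5. It then stood at 6.89, 6.37, 6.37, 6.63 and 6.84 at E12.5 and at 8.12, 7.27, 8.28, 8.24 and 7.95 at E17.5. The groups at E6.5, E12.5 and E17.5 did not overlap, and 1 of the 4 E6.5 arrays detected Ifne. Ifne rose by 1.59 ± 0.33 from E6.5 to E12.5 (adjusted p = 0.000547) and by a further 1.35 ± 0.31 to E17.5 (adjusted p = 0.00537). The median difference of the type I list was 0.57 over the first of these spans and -0.19 over the second. In NP Ifne ranged from 4.56 to 6.98, with replicate 1 highest. Epithelial markers rose with it, 4 of 5 in each of these 2 comparisons, and their part was not tested. Ifnk and Ifnz were detected on 3 and 4 of 32 arrays and did not pass the F test (adjusted p = 0.103 and 0.789).

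Of the receptors, Ifnar2 fell by 0.45 ± 0.17 from E6.5 to E12.5 (adjusted p = 0.042), a call lost without any of E6.5 replicates 1, 3 and 4 or E12.5 replicates 3, 4 and 5 (adjusted p from 0.058 to 0.130), under cyclic loess scaling (0.132), with the replicate block (0.0722), with trend and robust empirical Bayes (0.0575), and without the 3 or the 7 libraries (0.0509 and 0.091). Ifngr1 measured 8.57, 8.74, 8.58, 8.54 and 8.80 at E12.5 and 9.27, 9.12, 9.46, 9.53 and 9.10 at E17.5, without overlap. It rose by 0.65 ± 0.11 (adjusted p = 0.000163). Ifngr2 did not pass in any of the 9 comparisons. The kinase Jak2, which acts at the gamma receptor with Ifngr2, measured 8.13, 8.05, 8.01, 8.18 and 8.28 at E12.5 and 9.69, 9.00, 9.46, 8.61 and 9.23 at E17.5 and rose by 1.07 ± 0.18 (adjusted p = 0.000244). Mavs, the adaptor of the RNA sensors, rose by 0.46 ± 0.13 between the same days (adjusted p = 0.0313), which was lost without any of E12.5 replicates 1, 2 and 3 or E17.5 replicates 3, 4 and 5 (adjusted p from 0.058 to 0.103) and without the 3 or the 7 libraries (0.0746 and 0.334). With only the samples of the groups compared, the calls of Ifnar2 and Mavs were also lost (adjusted p = 0.0523 and 0.146). Jak1, another kinase of the pathway, had means of 7.37 at E12.5 and 7.23 at E17.5. It did not pass the F test over pregnancy (adjusted p = 0.146). Ifngr1 and Jak2 thus rose in late pregnancy and Ifngr2 did not pass, while the gamma-type list had a median of -0.33.

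Among inhibitors, Socs3 rose from 8.67, 8.46, 8.43 and 8.75 at E6.5 to 9.36, 9.25, 10.15 and 9.82 at E8.5 (1.07 ± 0.26, adjusted p = 0.0188), a call lost without E6.5 replicates 2 or 3 or E8.5 replicates 3 or 4 (adjusted p from 0.0523 to 0.0816). It fell by 0.91 ± 0.23 from E12.5 to E17.5 (adjusted p = 0.0119). Socs3 also responds to cytokines other than interferons. Socs1, a direct brake on both receptors, and Irf2, a competitor of Irf1, did not pass over pregnancy (adjusted p = 0.223 and 0.456). Socs1 fell from NP to E12.5 (means 5.65 and 4.90, adjusted p = 0.0107), but only 2 of 5 E12.5 arrays detected it and the E12.5 mean was below the lowest detected signal (5.03), so the size is uncertain. Nlrc5, which switches on MHC class I and its processing genes, was detected on no E6.5 array and measured 6.11, 6.33, 6.46, 6.06 and 6.14 at E12.5, at least 2.35-fold higher (adjusted p = 8.78e-05). That bound sets the E12.5 mean against the lowest detected signal of the E6.5 arrays.

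Cxcl9 and Cxcl10, chemokines that interferon gamma induces and that draw T and natural killer cells, were low throughout. Cxcl9 measured 6.60, 6.38, 6.74, 5.83 and 6.09 at E10.5 and 5.29, 6.09, 5.52, 5.09 and 5.40 at E12.5, and fell by 0.85 ± 0.21 (adjusted p = 0.0396), a call lost without E10.5 replicates 1, 2 or 3 or E12.5 replicates 1, 3, 4 or 5 (adjusted p from 0.075 to 0.124), with the replicate block (0.0521) and without the 7 libraries (0.149). It fell by a further 0.67 ± 0.21 to E17.5 (adjusted p = 0.0474), when the mice were at 4.80, 4.87, 4.41, 4.91 and 5.07. Only 1 of these 5 arrays detected Cxcl9. The mean of 4.81 was below the lowest detected signal there (4.99), so the size of this fall is uncertain. With only the samples of the groups compared, neither fall passed (adjusted p = 0.0812 and 0.0619). This second fall of Cxcl9 was lost without E12.5 replicates 1, 2, 3 or 5 or E17.5 replicates 1, 2, 3 or 4 (adjusted p from 0.0581 to 0.178), with the replicate block (0.0629), without background correction (-0.22, adjusted p = 0.0944), with trend and robust empirical Bayes (0.0535), and without the 3 or the 7 libraries (0.0572 and 0.131). Cxcl10 was detected on 9 arrays, of which 3 were E8.5 mice, 4 were E10.5 mice and 2 were E12.5 mice, and passed the F test over pregnancy (adjusted p = 0.00118) without passing any of the 9 comparisons.

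**Figure D5:**
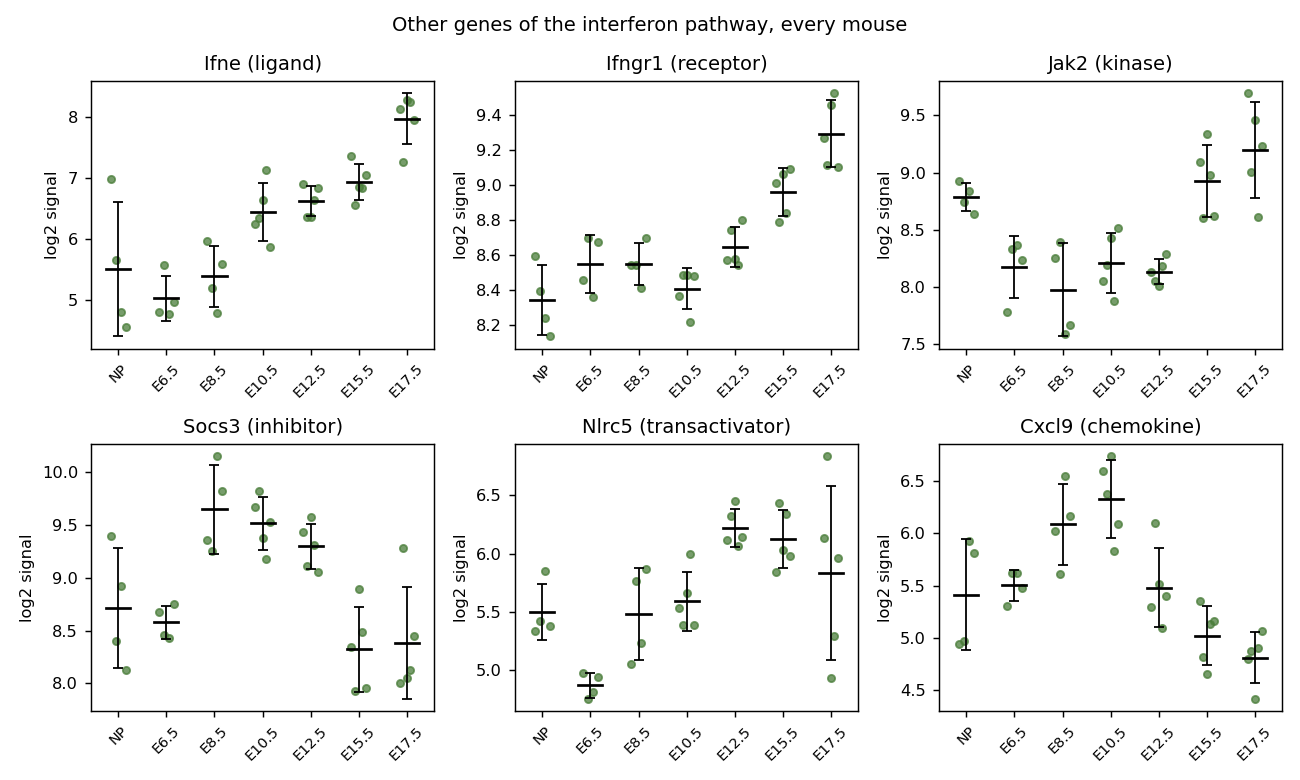
Log2 signal (vertical axis) of 6 other genes of the interferon pathway in every mouse (points) by time point, with the group mean (bar) and SD (whiskers). Ifne and Ifngr1 are highest at E17.5, Socs3 and Cxcl9 at E8.5 or E10.5, and Nlrc5 at E12.5.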

How the data were processed

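Uterine RNA from 32 FVB/N mice was hybridised to Illumina bead arrays. The deposited table of probe intensities, with a detection p-value per probe and array, was not yet normalised. The deposited log2 values were, per the study's methods, made by the authors with limma. Probes detected on no array were left out, background was removed with normexp on control probes, and arrays were quantile scaled. Values rebuilt from the intensities with neqc (offset 16) differed by at most 0.0339. Each gene was represented by its most variable probe (highest SD). All 32 arrays entered 1 limma 3.58.1 fit (R 4.3.3) with a mean per time point, and changes were called at a Benjamini-Hochberg adjusted p of at most 0.05 over 13439 genes, in 9 comparisons and an F test over the 6 pregnant time points. The steps were first tested on simulated data. Python 3.11.15 searched the promoters. Each mouse is 1 sample, and the number of mice limits the precision. Up to 3 genes per role past the F test, those with the largest spread of group means, are given by mouse for groups compared. Pathway ligands, receptors, Irf2, Socs1, Cxcl9, Cxcl10 and the 4 others with the smallest F test p are also described. Of these, Ifne, Ifngr1, Jak2, Socs3, Nlrc5 and Cxcl9 are given by mouse, and the rest by change, mean, test or detection. Rsad2, Tap1, Irf1 and Oasl1 were added after their values were seen. Genes, lists and tests were chosen with earlier results of these data known.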

Additional observations from a re-analysis of the deposited data

Results flagged for a closer look

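In 12 of 252 sets of 4 or 5 values, each 1 gene in 1 group, a single mouse lay far from the rest of its group by Dixon's test, 9 of them high and 3 low. Chance alone marks about 1 in 20 such sets. The high values were Dhx58 at 6.96 in E15.5 replicate 5, Irf9 at 7.11 in E12.5 replicate 3, Mx1 at 5.05 in E8.5 replicate 3, Oasl2 at 9.18 in NP replicate 1, Usp18 at 7.78 in E6.5 replicate 2 and at 9.19 in E15.5 replicate 2, Rtp4 at 5.21 in E17.5 replicate 3, Iigp1 at 5.03 in E15.5 replicate 3 and Psmb9 at 9.78 in E8.5 replicate 3. The low values were Gbp2 at 4.88 in E10.5 replicate 4, Irgm1 at 12.66 in NP replicate 4 and Psmb10 at 8.89 in E6.5 replicate 3.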

How the results depend on the processing

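Of 56 calls of single genes, 34 held when any 1 mouse was left out, and none changed direction under any setting. Leaving out 1 mouse at a time, the number of genes called ranged from 2 to 5 for NP to E6.5, 5 to 9 for E6.5 to E8.5, 1 to 2 for E8.5 to E10.5, 0 to 2 for E12.5 to E15.5, 14 to 23 for E6.5 to E12.5, 4 to 9 for E12.5 to E17.5, 13 to 19 for NP to E12.5 and 16 to 22 for the F test, and stayed at 0 for E10.5 to E12.5 and E15.5 to E17.5. Counts that moved by over 1.5 times under other settings were as follows, and the cause was not tested. With only the samples of the groups compared, the count for NP to E6.5 was 2 in place of 4, and those for E8.5 to E10.5 and E12.5 to E15.5 were 2 in place of 1. With the probe of highest mean per gene, the last 2 were also 2. Under cyclic loess the count for E6.5 to E8.5 was 5 in place of 8. Without the 7 libraries, which leaves fewer mice, the counts were 0 in place of 1 for E12.5 to E15.5, 13 in place of 20 for E6.5 to E12.5 and 2 in place of 7 for E12.5 to E17.5. Without the 3 libraries highest in placenta or yolk sac genes, an alternative chosen after seeing the data, the last was 3. Of the 56 calls, 7 were lost under cyclic loess, 10 with only the samples compared (Stat2, Ifi27, Irf8, Psmb10, Tap2, Ifit3, Rsad2 and Usp18 once each and Lgals3bp in 2 comparisons), 15 without the 7 libraries, 4 without the 3, 1 without background correction, 1 with the probe of highest mean (Psmb10, E12.5 to E17.5), and 0 with rebuilt log2 values or with trend and robust empirical Bayes. With probes detected on at least 4 arrays none was lost among the genes left, and Oas1a was not tested. A fit with the replicate number as a block (replicate block) called 2 genes in place of 1 for E8.5 to E10.5 and lost 1 of the 56 calls, that of Oas1a. The numbers only name the mice: over 90 pairs of equal number in different groups the median correlation of deviations from the group mean was 0.0423, 27 were over 0.1, and 7 of 32 mice correlated best with their own number. No setting moved the median of all genes by over 0.1. A run with no detection filter was not made, since the removed probes carry no symbol here. Genes near background, such as Mx1, Xaf1, Oas1a, Rtp4 and Iigp1, could show only changes that lift them above it.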
